A study of Mus musculus with 6 samples.

Results

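The Wnt signalling machinery was examined as a list of 50 genes, picked by symbol from ligands down to nuclear and junction partners of β-catenin, among the 31950 genes measured by RNA-seq in mouse liver. All 50 were found, and 42 had a mean of at least 0.5 FPKM over the livers and were tested together with 13243 genes in all. FPKM are fragments of a gene per kilobase of its transcripts and of all mapped fragments. Livers of 3 WT and 3 *β-cateninΔ(ex3)/+* mice were compared, all C57BL/6 and labelled as 8 weeks old, with 1 library per liver. The *β-cateninΔ(ex3)/+* mice carry 1 *Ctnnb1* allele whose exon 3 is removed by Cre recombinase. The study describes several ways to bring Cre into the liver, a constitutive albumin-driven Cre whose mice died young, an adenovirus given by the tail vein, which leaves a mosaic, and a tamoxifen-induced albumin-driven Cre, which acts in hepatocytes. It uses the name *β-cateninΔ(ex3)/+* for livers of the tamoxifen route, though its RNA-seq methods name no route, and the sources used here do not give the sex of the mice.

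Wnt proteins are acylated and carried out of the cell, and bind Frizzled receptors with Lrp5 or Lrp6 on the receiving cell. Without a Wnt, a cytoplasmic complex of Axin, Apc, Gsk3 and casein kinase 1 phosphorylates β-catenin at the residues encoded by exon 3 and marks it for destruction. With a Wnt, or without those residues, β-catenin accumulates and acts with TCF/LEF factors on its target genes. In the liver, endothelial cells around the central vein are a known source of Wnts and R-spondins, and hepatocytes near that vein respond with genes such as *Glul*.

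Exon 3 of *Ctnnb1* is shown because its loss is what sets the mutant livers apart by design. It is exon 3 of 15 and lies at chr9:120950522-120950749 on the plus strand of GRCm38 (GENCODE M21). Its 228 bases are wholly coding and amount to 76 codons, so the reading frame stays intact when it is removed. Capitals mark the codons of Ser33, Ser37, Thr41 and Ser45, the phosphorylated residues.
*Ctnnb1* exon 3: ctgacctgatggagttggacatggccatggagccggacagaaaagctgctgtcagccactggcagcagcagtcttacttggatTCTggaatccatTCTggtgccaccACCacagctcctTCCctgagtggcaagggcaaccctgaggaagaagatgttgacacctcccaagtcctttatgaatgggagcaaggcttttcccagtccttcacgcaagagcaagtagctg

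The TCF/LEF motif CTTTGAT was searched on both strands of RefSeq promoters (GRCm38.p6), each 300 bases long, from 250 bases before to 50 after a transcription start. Promoters were held for 30 of the 50 genes. The motif was found in 1 of their 39 promoters (2.56%) and in 1225 of all 32851 promoters (3.73%). The single match was in front of *Wnt11* and stood 51 bases before the start. The 250 bases before that start (chr7:98834862-98835111, plus strand) are shown with the motif, read here on the opposite strand, in capitals.
*Wnt11* upstream: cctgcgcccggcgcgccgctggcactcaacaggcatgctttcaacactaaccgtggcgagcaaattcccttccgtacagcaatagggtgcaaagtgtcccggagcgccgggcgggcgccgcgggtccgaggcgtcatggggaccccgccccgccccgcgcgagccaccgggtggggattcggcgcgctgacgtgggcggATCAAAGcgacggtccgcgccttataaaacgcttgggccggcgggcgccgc

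The groups also differed in ways that their labels do not give. The hepatocyte gene *Alb* was high in every liver (39618 to 43342 FPKM in WT, 24721 to 25012 in mutants). The fetal liver gene *Afp* had 601 to 612 FPKM in WT and 2.38 to 2.81 in mutant livers, and the 8 genes of a young liver list that were in the table were all lower in mutants, with summed levels of 3858 to 3924 against 7.08 to 7.94 FPKM. *Xist*, expressed from the inactive X chromosome, had 20.3 to 22.2 FPKM in WT livers and at most 0.0146 in mutants. The Y chromosome gene *Ddx3y* had 0 to 0.0156 FPKM in WT and 5.83 to 5.98 in mutant livers, and *Eif2s3y* had 0 to 0.0169 and 9.20 to 9.94. By these transcripts the WT livers look female and the mutant livers male. Genotype, sex and the state that the young liver genes follow therefore cannot be told apart in any comparison given here, and no library could be left out to separate them. *Axin2*, a direct β-catenin target, had 0.641 to 1.43 FPKM in WT and 5.89 to 7.03 in mutant livers. The depth estimated from steps in the low values was 24.5 to 24.7 M fragments in WT and 16.95 to 19.55 M in mutant livers.

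Transcripts of 5 of the listed genes fell at least 2-fold in *β-cateninΔ(ex3)/+* livers, and none of the list rose that far on the log2(FPKM + 1) scale. The 5 genes were *Rspo3*, *Fzd8*, *Dkk3*, *Wif1* and *Cdh1*, that is a ligand, a receptor, a pair of secreted proteins of inhibitor families and the main cadherin of epithelial cells (limma, Benjamini-Hochberg adjusted p under 0.05 and log2 fold change of at least 1). Of all genes tested, 4.52% fell and 8.17% rose by this rule. At an unadjusted p under 0.05 the counts of listed genes past 2-fold were also 5 lower and 0 higher, but at a pseudocount of 0.1 in place of 1 they were 11 lower and 1 higher (*Porcn*). With the adjusted p alone and any size of change, 8 of the 42 rose, 14 fell and 20 did not pass, against 37.4% and 19.6% of all genes tested that rose and fell. Every mutant liver was above every WT liver for 13 of the 42 genes and below for 19, where the shares of all genes were 43.0% and 23.0%. The median log2 fold change was -0.11 over the 42 genes and 0.14 over all genes tested. Scaling the libraries by median ratios moved the median of all genes by -0.14, after which 6 pathway genes rose and 22 fell at any size of change, beside 27.1% and 27.0% of all genes.

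**Figure D1:**
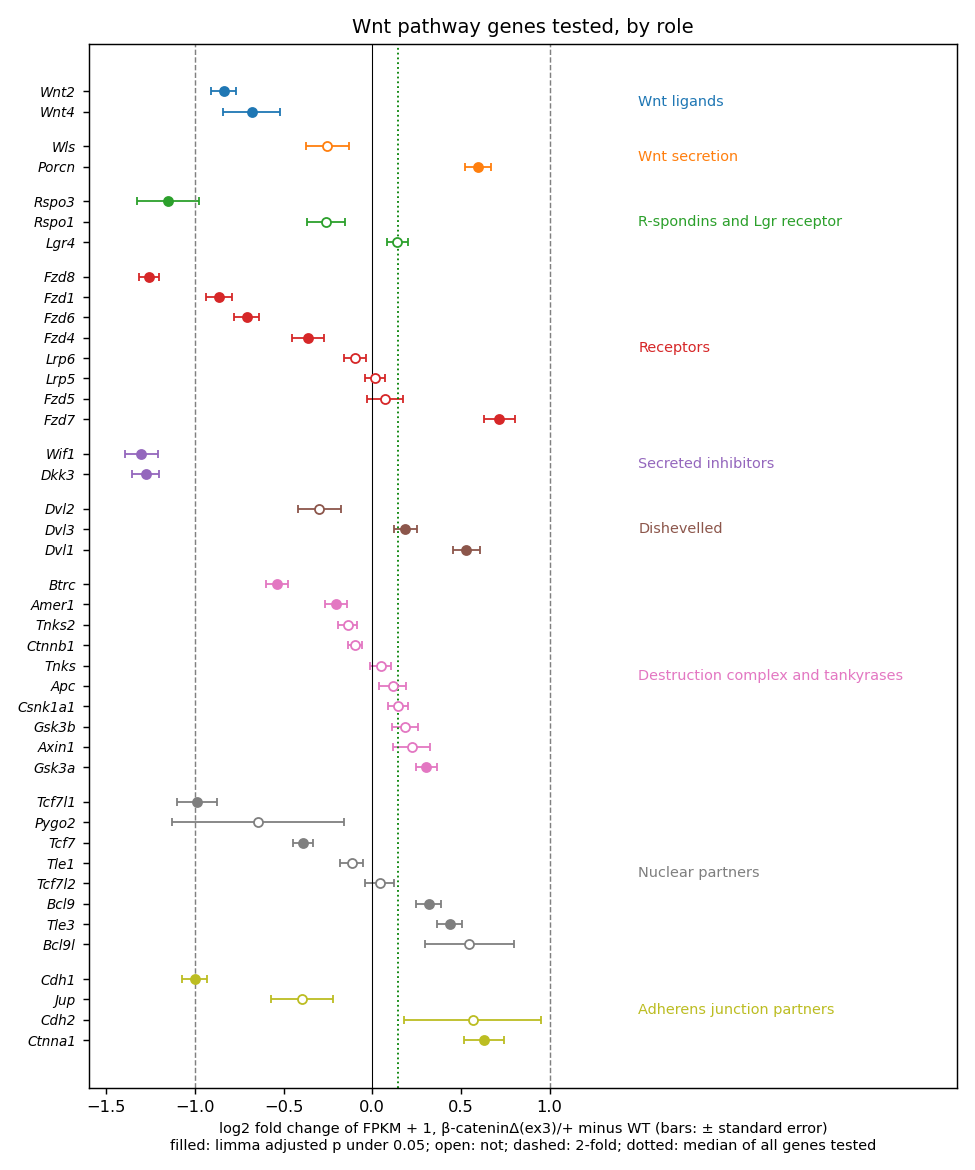
Log2 fold change of FPKM + 1 (x axis, *β-cateninΔ(ex3)/+* minus WT, bars are standard errors, 3 livers per group) for the 42 genes tested, grouped by role. Filled points passed a limma adjusted p under 0.05, dashed lines mark 2-fold and the dotted line marks the median of all genes tested, 0.14. *Wif1*, *Dkk3*, *Fzd8* and *Rspo3* lie clearly beyond the lower 2-fold line, *Cdh1* lies on it, and no point reaches the upper one.

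Of the 5 listed Wnt ligands 2 could be tested, and both fell. *Wnt2*, which liver endothelial cells make, had 2.78, 3.09 and 3.06 FPKM in WT and 1.09, 1.23 and 1.35 in mutant livers. The groups were far apart, and the log2 fold change was -0.84 (SE 0.070, limma adjusted p = 0.00015). *Wnt4* had 0.928 to 1.895 FPKM in WT and 0.466 to 0.643 in mutant livers (log2 fold change -0.68, SE 0.16, limma adjusted p = 0.0132), and its WT livers were more spread. Both were past 2-fold at a pseudocount of 0.1, with -1.22 and -1.27, since adding 1 shrinks the change of genes near 1 FPKM.

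The other 3 ligands were below the level for a test. *Wnt5a* had 0.0921 to 0.533 FPKM in WT and 0.350 to 0.442 in mutant livers, and *Wnt9b*, a central vein Wnt, had 0.161 to 0.278 and 0.177 to 0.295, so both overlapped between groups. *Wnt11*, whose promoter is printed above, had 0 to 0.0583 FPKM in WT and 0.142 to 0.278 in mutants. In a fit of 26528 genes without the expression filter its log2 fold change was 0.23 (limma adjusted p = 0.0167). In that fit 19.8% of all genes were higher at an adjusted p under 0.05. A link between the motif and the level of *Wnt11* was not tested. The 5 ligands together had 4.76 to 5.32 FPKM in WT and 2.32 to 2.86 in mutant livers, and *Wnt2* was the highest of them in both groups. The sum over 12 other Wnt genes went the opposite way, with 0.624 to 0.887 FPKM in WT and 2.84 to 2.91 in mutant livers, most of it in mutants *Wnt5b*, which is described with the wider list and was above *Wnt2* there.

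Of the genes for Wnt secretion, *Porcn* rose and *Wls* did not pass. *Porcn*, the acyltransferase that attaches the lipid to Wnts, had 0.327, 0.392 and 0.471 FPKM in WT and 1.14, 0.978 and 1.22 in mutant livers. It rose by 0.60 (SE 0.075, limma adjusted p = 0.000913) on the log2(FPKM + 1) scale, and by 1.29 at a pseudocount of 0.1, where it was past 2-fold. Its WT mean was 0.397 FPKM, so it passed the filter only through its mutant livers. *Porcn* is on the X chromosome, and *Xist*, as given above, was lower where *Porcn* was higher. The part of sex in the result was not tested. *Wls*, the carrier of Wnts to the cell surface, had 0.602 to 1.06 FPKM in WT and 0.344 to 0.537 in mutants and did not pass the test (log2 fold change -0.25, limma adjusted p = 0.121).

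R-spondins strengthen Wnt signals by keeping Frizzled receptors at the cell surface. *Rspo3* (ENSMUSG00000019880, chr10:29452416-29535867) had 2.78, 3.16 and 2.57 FPKM in WT and 0.852, 1.07 and 0.329 in mutant livers. The lowest WT liver was above the highest mutant, and the third mutant liver stood below the other two. *Rspo3* fell by 1.154 on the log2 scale (SE 0.17, limma adjusted p = 0.00203), and by 0.97, which is less than 2-fold, without mutant replicate 3. An antisense transcript, *Gm48159*, overlaps its exons, and the strand setting of the counting is not given in the sources used here. The same holds for antisense genes over exons of *Wnt5a*, *Fzd5*, *Fzd6*, *Dvl1*, *Dvl2*, *Ctnnb1*, *Gsk3a*, *Btrc*, *Tnks*, *Lef1*, *Tcf7l1*, *Bcl9l*, *Tle1* and *Ctnna1*. *Rspo1* had 0.911 to 1.39 FPKM in WT and 0.650 to 0.921 in mutant livers, which overlapped (log2 fold change -0.26, limma adjusted p = 0.0841, and 0.0339 after median-ratio scaling). *Lgr4*, the R-spondin receptor, had 3.57, 4.01 and 4.05 FPKM in WT and 4.38, 4.39 and 4.34 in mutants. Its log2 fold change of 0.14 did not pass (SE 0.058, limma adjusted p = 0.0848) and was -0.016 after median-ratio scaling.

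Markers of endothelial and mesenchymal cells moved with these genes. All 12 genes of a liver endothelial list fell at any size of change, by 0.14 to 1.10 on the log2 scale, and their summed level was 119.9 to 123 FPKM in WT and 82.7 to 84.9 in mutant livers. All 12 genes of a stellate and mesenchymal cell list fell too, by 0.18 to 2.43, with sums of 159 to 162 FPKM against 49.2 to 56.6. None of these 24 markers was at 0 in any liver. *Vwf*, of the endothelial list, had a mutant mean of 0.406 FPKM and passed the filter through its WT livers. Of all genes tested 19.6% fell at any size of change. Fewer cells of a type and less RNA per cell cannot be told apart in whole liver, and the part of these cells in the fall of *Wnt2*, *Wnt4*, *Rspo3* or other genes was not tested.

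**Figure D2:**
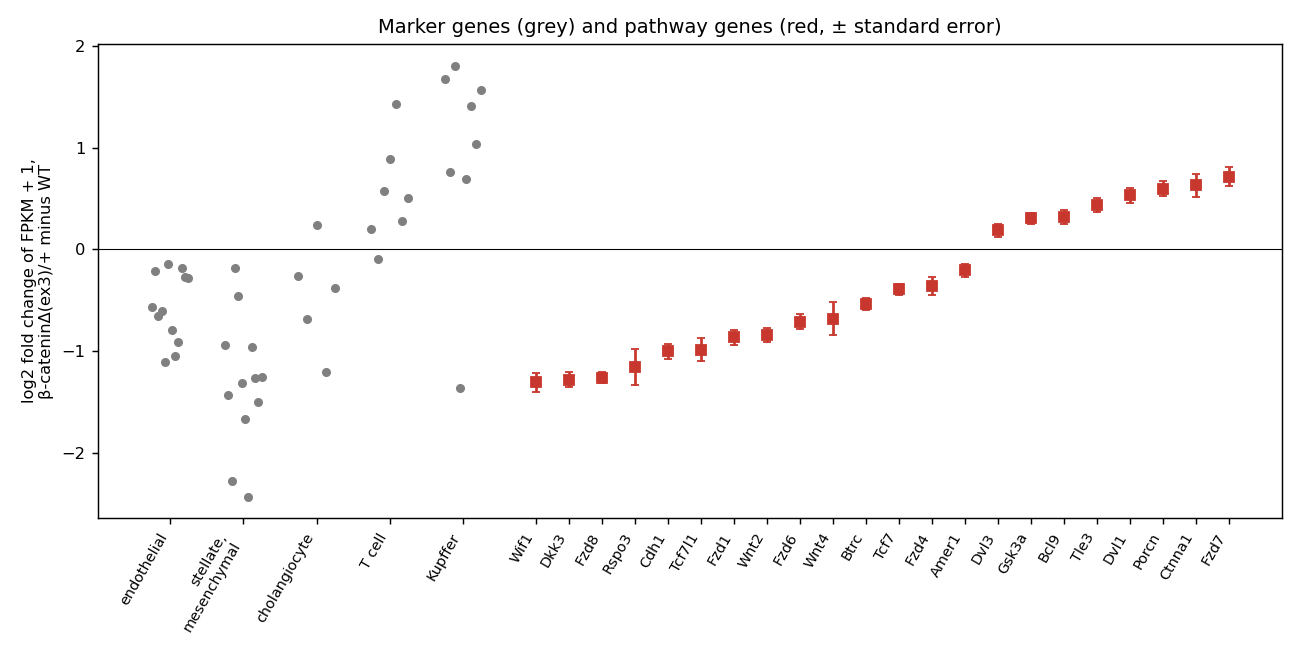
Log2 fold change of FPKM + 1 (y axis, *β-cateninΔ(ex3)/+* minus WT, 3 livers per group) of marker genes of 5 cell types, 1 grey point per gene, and in red, with standard errors, of the 22 listed genes with a limma adjusted p under 0.05, ordered by their change. All 12 endothelial and all 12 mesenchymal markers lie below 0, 14 of the listed genes lie below and 8 above, and 7 of 8 Kupffer cell markers lie above.

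Of the 8 Frizzled and Lrp genes tested, *Fzd8*, *Fzd1*, *Fzd6* and *Fzd4* fell and *Fzd7* rose. *Fzd8* had 4.96, 4.74 and 5.06 FPKM in WT and 1.54, 1.51 and 1.37 in mutant livers. Replicates agreed closely in both groups, and *Fzd8* fell by 1.26 on the log2 scale (SE 0.057, limma adjusted p = 1.1e-05). *Fzd7* (chr1:59482424-59486955) had 2.48, 2.87 and 2.16 FPKM in WT and 4.499, 5.06 and 4.67 in mutant livers, with no overlap. It rose by 0.72 (SE 0.089, limma adjusted p = 0.000871), and by 0.54 or more under every alternative tried, opposite to the 4 Frizzled genes that fell.

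Of the others, *Fzd1* went from 3.34 to 4.04 FPKM in WT to 1.504 to 1.55 in mutant livers (log2 fold change -0.86, SE 0.073, limma adjusted p = 0.000165). *Fzd6*, better known from planar polarity, had 1.28 to 1.58 FPKM in WT and 0.461 to 0.538 in mutants (log2 fold change -0.71, limma adjusted p = 0.000315). Its mutant mean was 0.496 FPKM, so it passed the filter through its WT livers. *Fzd4*, an endothelial receptor, fell least, from 3.49 to 3.85 down to 2.26 to 2.92 FPKM (log2 fold change -0.36, limma adjusted p = 0.0149), and missed the threshold without WT replicate 1 (0.0504). *Fzd5* overlapped between groups, with 0.406 to 0.595 and 0.487 to 0.805 FPKM. *Fzd2*, at no more than 0.391 FPKM, was not tested.

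Since FPKM are per length, levels of the Frizzled genes can be set side by side. Summed over the family, WT livers had 17.1 ± 0.361 FPKM and mutant livers 11.7 ± 0.524 FPKM (SD, n = 3 each). In WT livers *Fzd8* came first, with 27.1% to 30.2% of the sum, and was above *Fzd4* and *Fzd1* in every liver, whose own ranges overlapped. In mutant livers *Fzd7* came first, with 37.9% to 42.1% against 12.9% to 16.4% in WT, followed by *Fzd4*. *Fzd1* and *Fzd8* came next and overlapped, and *Fzd8* made up 12.3% to 13.0%.

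**Figure D3:**
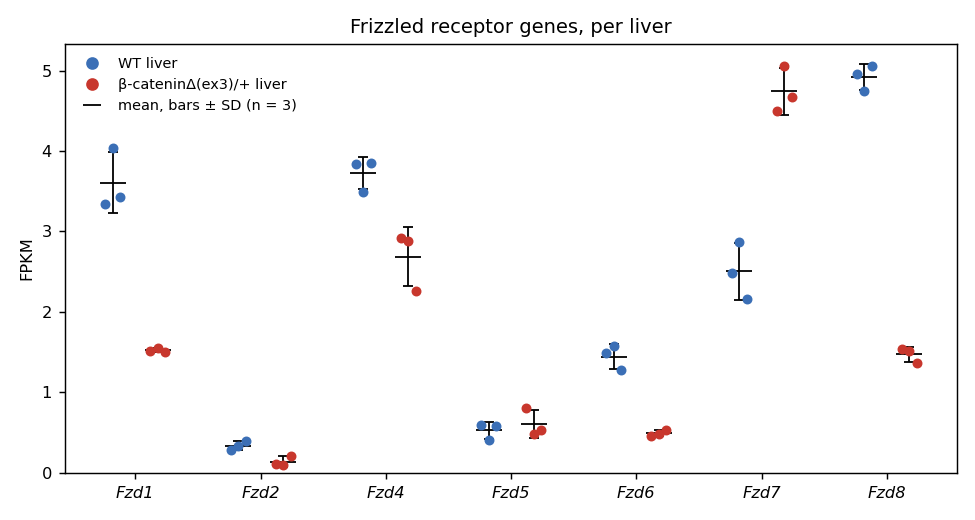
FPKM (y axis) of the 7 Frizzled genes in each WT (blue) and *β-cateninΔ(ex3)/+* (red) liver, with the mean and SD of 3 livers in black. *Fzd8* was highest in WT livers at 4.74 to 5.06 FPKM, and *Fzd7* was highest in mutant livers at 4.499 to 5.06 FPKM.

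Neither coreceptor passed the test. *Lrp5* had 9.97, 9.03 and 9.81 FPKM in WT and 9.86, 9.96 and 9.32 in mutant livers. The groups overlapped, with a log2 fold change of 0.015 (SE 0.055, limma adjusted p = 0.829) that was -0.16 (adjusted p = 0.0487) after median-ratio scaling. *Lrp6* was lower in level than *Lrp5*, at 2.57 to 2.88 FPKM in WT and 2.40 to 2.61 in mutants (log2 fold change -0.099, limma adjusted p = 0.211, and 0.0197 after median-ratio scaling).

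Of the secreted proteins of inhibitor families, *Wif1* and *Dkk3* passed the filter, through their WT livers, and both fell. *Wif1* (ENSMUSG00000020218, chr10:121033960-121100650), which binds Wnts outside the cell, had 1.75, 1.59 and 1.24 FPKM in WT and was listed at 0.0631, 0 and 0 in mutant livers. Its log2 fold change was -1.30 (SE 0.093, limma adjusted p = 7.9e-05) and depends on the pseudocount, being -3.77 with 0.1. *Dkk3* (ENSMUSG00000030772, chr7:112116017-112159057), a divergent member of the Dickkopf family, had 2.43, 1.94 and 2.23 FPKM in WT and 0.303, 0.290 and 0.357 in mutant livers. It fell by 1.28 (SE 0.077, limma adjusted p = 3.7e-05), and no mutant liver came near a WT liver.

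The remaining inhibitors were too low for the main test. *Sfrp1* had 0.629 to 0.806 FPKM in WT and 0.154 to 0.265 in mutants, and *Sfrp5* was listed at 0 in every WT liver and at 0.679, 0.897 and 0.516 FPKM in mutants. These secreted Frizzled-related proteins thus stood in opposite order. In the fit without the filter the log2 fold change was -0.51 for *Sfrp1* (limma adjusted p = 0.00227) and 0.76 for *Sfrp5* (limma adjusted p = 0.00142). Of all genes in that fit 12.4% were lower and 19.8% higher at an adjusted p under 0.05. *Dkk1* was listed at 0 in all 6 livers.

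**Figure D4:**
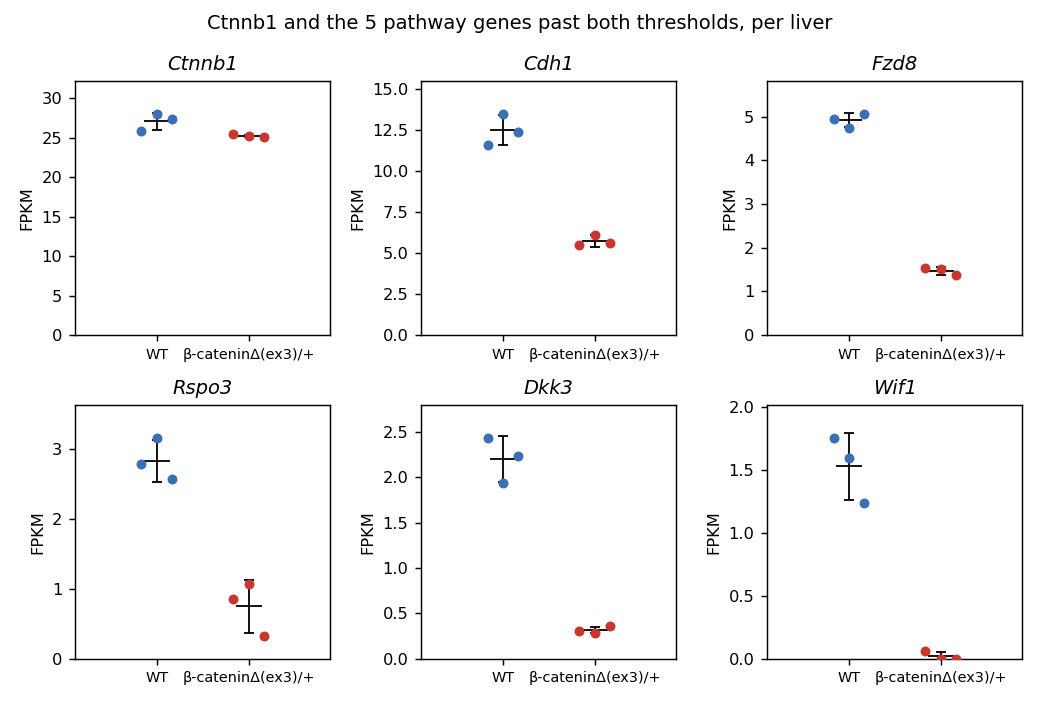
FPKM (y axis, from 0) of *Ctnnb1* and of the 5 genes past both thresholds in each WT (blue) and *β-cateninΔ(ex3)/+* (red) liver, with the mean and SD of 3 livers in black. The groups are apart in all panels, by the least for *Ctnnb1*, at 25.9 to 28.0 FPKM in WT and 25.04 to 25.4 in mutant livers.

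Dishevelled proteins carry the signal from Frizzled into the cell. *Dvl1* had 8.43, 8.07 and 9.57 FPKM in WT and 13.6, 13.3 and 12.0 in mutant livers. It rose by 0.53 (SE 0.078, limma adjusted p = 0.00182) and by 0.35 after median-ratio scaling (adjusted p = 0.00951). *Dvl3* rose by only 0.19 (limma adjusted p = 0.0464), from 2.54 to 2.95 FPKM in WT to 3.10 to 3.37 in mutants, and did not pass after median-ratio scaling (0.60) or when any of 5 of the 6 livers was left out. *Dvl2* had 1.78 to 2.46 FPKM in WT and 1.20 to 1.72 in mutants, a log2 fold change of -0.30 (limma adjusted p = 0.0767) that passed after median-ratio scaling (0.0263) and with a block for replicate number (0.0406). *Dvl1* made up 62.7% to 66.5% of the summed level of the 3 genes in WT livers and 72.7% to 74.4% in mutant livers.

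β-Catenin itself was the highest transcript of the list. *Ctnnb1* (ENSMUSG00000006932, chr9:120929216-120960507) had 25.9, 28.0 and 27.3 FPKM in WT and 25.4, 25.2 and 25.04 in mutant livers. Every mutant liver was slightly below every WT liver, with a log2 fold change of -0.097 (SE 0.042, limma adjusted p = 0.0935), which was -0.28 after median-ratio scaling (adjusted p = 0.00224). The value is for the whole gene and does not show how much of the transcript lacks the exon printed above.

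Of 10 genes of the destruction complex and its tankyrases, *Ctnnb1* included, 1 rose, 2 fell and 7 did not pass. By the same rule 37.4% of all genes tested rose and 19.6% fell. *Btrc*, the F-box protein that recognises phosphorylated β-catenin, fell from 1.24 to 1.35 FPKM in WT to 0.515 to 0.633 in mutant livers (log2 fold change -0.54, SE 0.061, limma adjusted p = 0.00061). *Amer1*, a scaffold at the membrane encoded on the X chromosome, fell by 0.21 (limma adjusted p = 0.0335), from 0.715 to 0.775 FPKM to 0.434 to 0.567, and missed the threshold when any of 5 of the 6 livers was left out.

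*Gsk3a* was the highest of the complex's kinases, with 18.9, 16.5 and 18.2 FPKM in WT and 22.1, 22.4 and 22.4 in mutant livers. It rose by 0.31 (SE 0.058, limma adjusted p = 0.00518), but the change was 0.12 after median-ratio scaling (adjusted p = 0.118). Its partner *Gsk3b* stood at 1.78 to 1.99 FPKM in WT and 2.00 to 2.45 in mutants (log2 fold change 0.18, limma adjusted p = 0.0772). The scaffolds *Apc* and *Axin1* had log2 fold changes of 0.12 and 0.22, and the priming kinase *Csnk1a1* had 0.14, none of which passed the test. *Csnk1a1* was at -0.025 after median-ratio scaling. Tankyrases, which mark Axin for degradation, had log2 fold changes of 0.048 for *Tnks* and -0.14 for *Tnks2*, and *Tnks2* passed only after scaling, with -0.29 by median ratios (adjusted p = 0.00562).

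Among the DNA-binding partners of β-catenin that could be tested, *Tcf7l1* and *Tcf7* fell and *Tcf7l2* did not pass. Of all genes tested 19.6% fell and 37.4% rose at any size of change. *Tcf7l1*, mostly known as a repressor of Wnt targets, had 3.04, 3.82 and 3.54 FPKM in WT and 1.40, 0.961 and 1.42 in mutant livers. It fell by 0.99 (SE 0.11, limma adjusted p = 0.000607), just short of the 2-fold limit of the log2(FPKM + 1) scale. *Tcf7l1* was past that limit after median-ratio scaling, with -1.11, and at a pseudocount of 0.1, with -1.40. *Tcf7* fell by 0.39 (SE 0.055, limma adjusted p = 0.00147), from 4.15 to 4.28 FPKM in WT to 2.86 to 3.19 in mutants. *Tcf7* is also expressed by T cells, whose 10 markers had a summed level of 4.25 to 5.29 FPKM in WT and 10.1 to 10.3 in mutant livers. Of the 7 T cell markers tested 4 rose, beside 37.4% of all genes tested. Of these, *Cd4*, *Cd8a* and *Cd8b1* had WT means of 0.293, 0.243 and 0.225 FPKM and passed the filter only through their mutant livers. *Il7r* was too low for a test and lower in every mutant liver. The part of T cells in the level of *Tcf7* was not tested. *Tcf7l2*, a factor known from hepatocytes, overlapped between groups at 0.985 to 1.11 and 0.924 to 1.29 FPKM (log2 fold change 0.042, limma adjusted p = 0.694). *Lef1* was too low to be tested. The 4 TCF/LEF genes summed to 8.81 ± 0.374 FPKM in WT and 5.395 ± 0.469 FPKM in mutant livers (SD, n = 3 each).

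The cofactors were mixed. *Tle1*, a Groucho corepressor and the highest of the nuclear partners by the mean over all 6 livers, though not within either group, had 3.88, 4.25 and 4.19 FPKM in WT and 3.90, 3.42 and 3.83 in mutants and did not pass (log2 fold change -0.12, limma adjusted p = 0.176, and 0.0131 after median-ratio scaling). Its relative *Tle3* rose by 0.44 (SE 0.070, limma adjusted p = 0.0027), from 0.889 to 1.07 FPKM to 1.55 to 1.84. *Bcl9*, the adaptor that links β-catenin to Pygopus, rose by 0.32 (SE 0.071, limma adjusted p = 0.01), from 0.691 to 0.789 FPKM to 1.06 to 1.33. Its paralogue *Bcl9l* had 3.55, 1.78 and 3.34 FPKM in WT and 3.86, 6.29 and 3.85 in mutant livers, and *Pygo2* had 3.85, 6.53 and 3.75 against 5.17, 0.722 and 3.29. In both genes replicate 2 of each group was at the outer end of its group's range, in opposite directions in WT and mutant livers, and neither passed the test (limma adjusted p = 0.107 and 0.299).

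**Figure D5:**
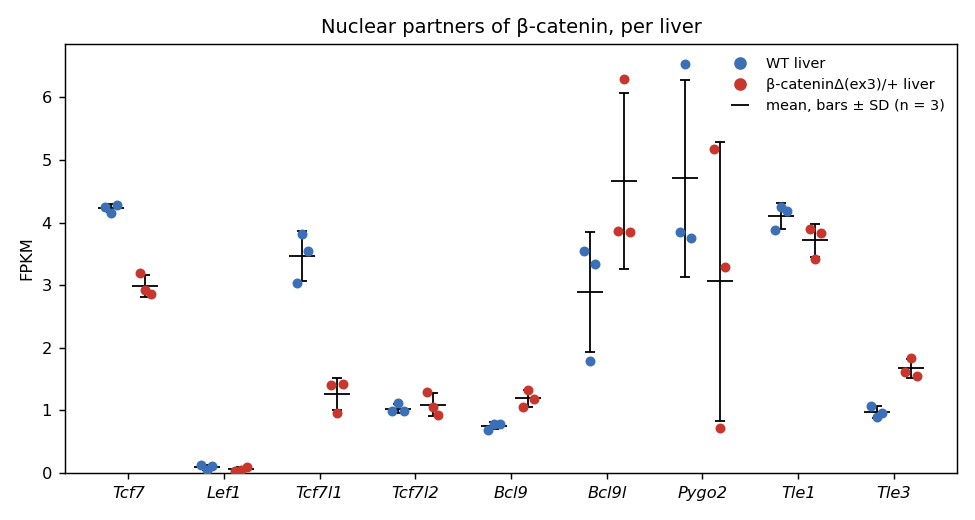
FPKM (y axis) of the 9 nuclear partners of β-catenin in each WT (blue) and *β-cateninΔ(ex3)/+* (red) liver, with the mean and SD of 3 livers in black. *Tcf7* and *Tcf7l1* are lower in every mutant liver, *Bcl9* and *Tle3* are higher in every mutant liver, and *Bcl9l* and *Pygo2* are the most spread within groups.

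At cell junctions, β-catenin ties cadherins to α-catenin. *Cdh1* (ENSMUSG00000000303, chr8:106603351-106670246), which encodes E-cadherin, had 11.6, 13.5 and 12.4 FPKM in WT and 5.46, 6.12 and 5.60 in mutant livers. The groups were far apart, and *Cdh1* fell by 1.001 on the log2(FPKM + 1) scale (SE 0.071, limma adjusted p = 7.3e-05), which is at the 2-fold limit of that scale. It was just under that limit, though still past the adjusted p, without WT replicate 2 or mutant replicates 1 or 3, and its lowest change was 0.95. Cholangiocytes express *Cdh1* too, and of 5 marker genes of theirs that were tested 3 fell, while *Krt19* and *Sox9* did not pass. *Epcam*, which fell, had a mutant mean of 0.421 FPKM and passed the filter through its WT livers. Of all genes tested 19.6% fell at any size of change. The 8 listed markers summed to 48.2 to 51.2 FPKM in WT and 24.95 to 25.3 in mutant livers, most of it *Spp1*, and their part in the fall of *Cdh1* was not tested.

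*Ctnna1*, α-catenin, went the other way, with 3.98, 2.95 and 3.92 FPKM in WT and 6.75, 5.89 and 5.71 in mutant livers. It rose by 0.63 (SE 0.11, limma adjusted p = 0.00402) and by 0.47 after median-ratio scaling. *Jup*, the γ-catenin that can replace β-catenin at junctions, had 8.08 to 8.16 FPKM in WT and 4.19, 7.01 and 6.95 in mutants. Its log2 fold change of -0.40 did not pass (limma adjusted p = 0.0977), and without mutant replicate 1 it was -0.19 and passed (0.0259). *Jup* also passed after median-ratio scaling, with -0.57 (limma adjusted p = 0.0348), and by quantiles, with -0.64 (0.0215). *Cdh2*, N-cadherin, varied widely between replicates, with 2.87, 7.86 and 3.22 FPKM in WT and 5.05, 5.85 and 10.3 in mutant livers (log2 fold change 0.57, limma adjusted p = 0.255). Without WT replicate 2 it was 0.94 and passed (0.0428). *Cdh1* was the highest of these 4 junction genes by mean level in WT livers and the lowest in mutant livers.

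A wider list of 120 further Wnt pathway genes was read in the same fit, of which 63 could be tested. Of these, 26 rose and 13 fell at any size of change, and 5 rose and 2 fell past 2-fold, with a median log2 fold change of 0.19. These counts are close to the shares of all genes given above (37.4% and 19.6% at any size, 8.17% and 4.52% past 2-fold) and say nothing particular of the list. The 5 that rose include feedback inhibitors of the pathway. *Axin2*, a second Axin, rose by 1.86 (limma adjusted p = 0.000175), and *Notum*, which removes the lipid from Wnts, rose by 1.03 (limma adjusted p = 0.00104), from 10.9 to 15.1 FPKM in WT to 24.4 to 30.8 in mutants. *Wnt5b*, a ligand best known outside the β-catenin branch, had 0.245 to 0.524 FPKM in WT and 2.06 to 2.49 in mutant livers (log2 fold change 1.28, limma adjusted p = 0.000112). With a WT mean of 0.357 FPKM, *Wnt5b* passed the filter only through its mutant livers.

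The corepressor-related *Tle5* rose by 1.05 (limma adjusted p = 0.00038), and *Usp7*, a deubiquitinase, by 1.08 (limma adjusted p = 0.0336). *Usp7* was uneven among mutants, at 6.44, 2.25 and 6.49 FPKM. After median-ratio scaling *Notum*, *Tle5* and *Usp7* were below 2-fold on the log2(FPKM + 1) scale, with 0.85, 0.86 and 0.94, and *Usp7* also missed the adjusted p (0.0514). Without WT replicate 2 the number of wider list genes that rose past both thresholds was 3. The 2 that fell were *Gpc3* and *Ptk7*. *Gpc3*, a glypican of the fetal liver that is also in the young liver list, went from 54.7 to 57.4 FPKM down to 1.41 to 1.80 (log2 fold change -4.47, limma adjusted p = 1.16e-07). *Ptk7*, a coreceptor of planar polarity, went from 1.56 to 1.71 down to 0.138 to 0.172 FPKM (log2 fold change -1.20, limma adjusted p = 1.39e-05), and passed the filter only through its WT livers.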

How the data were processed

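RNA-seq was done by the authors on poly(A) RNA of 3 WT and 3 *β-cateninΔ(ex3)/+* livers. The single deposited table holds FPKM, computed by the authors for each gene in each liver. The submitters' processing notes name cutadapt 1.9, HISAT2 2.0.4, StringTie 1.3.4d, DESeq2 and edgeR without their roles. The libraries mark the strand, but its use in counting is not given in the sources used here, nor is the genome build; 28911 of 31950 genes have the bounds of GENCODE M21 (GRCm38). FPKM are not counts, so no count test was run and no counting intervals are given. Depths were estimated from steps in low values (19.7% to 27.1% of values on steps, 4% by chance).

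Genes averaging at least 0.5 FPKM were fitted as log2(FPKM + 1) with limma 3.58.1 in R 4.3.3 (lmFit, eBayes with trend) over all 6 livers, with Benjamini-Hochberg adjustment. Called genes had an adjusted p under 0.05, and past both thresholds also a 2-fold change, the limits of the study's methods. Fold changes on this scale understate changes of low genes. With 3 livers against 3, an exact permutation test of a single gene cannot give a p below 0.1. On simulated livers (13243 genes, 200 changed) the test recovered 67.5% of the changed genes. The simulation changed far fewer genes than were called in the real livers (37.4% higher and 19.6% lower at any size of change). The recovered share therefore need not hold for the real livers. Among 1854 genes with a mean of at least 20 FPKM the median coefficient of variation was 4.50% in WT and 3.31% in mutant livers. Alternatives were a pseudocount of 0.1, quantile normalization, median-ratio scaling, no filter, a minimum mean of 1 FPKM, no trend in eBayes, the replicate number as a block, and each liver left out in turn. All listed genes are described, by role. Values are given in every liver for those past both thresholds, for *Ctnnb1* and for the highest of each role, and of the wider list the genes past both thresholds are named. The labels number the livers as replicates and say no more of their origin, so p-values measure the spread between these samples. Members, gene lists and marker lists were chosen with earlier results of these data known.

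Further marker lists were read as context. Of 8 Kupffer cell markers 7 rose and 1 fell (sums 275 to 291 against 700 to 711 FPKM), of 10 proliferation genes 10 rose (26.2 to 27.9 against 72.2 to 74.3), and of 9 adult liver genes 8 rose and 1 fell. B cell markers summed to 24.0 to 25.5 against 3.14 to 4.23 FPKM, erythroid markers to 3327 to 3669 against 1816 to 1880, and central vein endothelial markers to 2.63 to 2.86 against 1.54 to 1.76. Hepatocyte genes summed to 84394 to 88253 against 46502 to 47437 FPKM, most of it *Alb*, *Ttr*, *Apoa1* and *Apoa2*. Of these 10 genes 5 fell, 3 rose (*Hnf4a*, *Cps1* and *Tat*) and 2 did not pass. The 11 β-catenin target genes summed to 1682 to 1892 against 2690 to 2739 FPKM. Of them 9 rose, *Znrf3* did not pass, and *Cyp2e1*, the highest, fell from 1536 to 1750 FPKM in WT to 1410 to 1434 in mutants.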

Additional observations from a re-analysis of the deposited data

How the results depend on the processing

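The number of pathway genes past both thresholds was 5 lower and 0 higher, and 4 to 6 lower with each liver left out in turn. At a pseudocount of 0.1 it was 11 lower and 1 higher (*Porcn*). The lower genes added there were *Wnt2*, *Wnt4*, *Fzd1*, *Fzd6*, *Btrc* and *Tcf7l1*. At any size of change 14 fell, and 22 did so under either scaling, by median ratios or by quantiles. The median log2 fold change of -0.11 was -0.14 at a pseudocount of 0.1, -0.27 by median ratios, -0.29 by quantiles and -0.13 to -0.088 with each liver left out. The share of higher among all genes past both thresholds was 64.4%, and 53.0% and 49.5% under these scalings, which moved the median of all genes by -0.14 and -0.16. In the wider list the 5 higher genes were 11 at a pseudocount of 0.1, 2 after either scaling and 3 to 5 with each liver left out, and the 2 lower genes were 6 at that pseudocount and 1 with a mean of at least 1 FPKM. Direction turned only in genes that did not pass the test, under median ratios and quantiles for *Lgr4* (-0.016, -0.040), *Lrp5* (-0.16, -0.25), *Csnk1a1* (-0.025, -0.088), *Tnks* (-0.050, -0.035) and *Tcf7l2* (-0.058, -0.043), and under quantiles for *Fzd5* (-0.0099). With each liver left out in turn *Fzd5* ranged from -0.016 to 0.12, *Tcf7l2* from -0.027 to 0.099 (both lowest without mutant replicate 1) and *Lrp5* from -0.024 without WT replicate 2 to 0.042, being also below 0 (-0.0016) without mutant replicate 2. Beyond what the alternatives are built to change, the cause was not tested. With the replicate number as a block 5 genes were lower past both thresholds and 0 higher. The labels tie the numbers to no shared animal or day and do not pair the livers. Deviations of same-numbered livers from their group means correlated by 0.027, 0.021 and -0.0054, which cannot show whether the livers shared a litter or day. Under the block *Dvl2* passed the adjusted p and *Dvl3* and *Amer1* did not. Low levels limit most of the ligands and inhibitors, 8 of the 50 genes being below the test's minimum.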
